A study of Mus musculus with 9 samples.

Results

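Expression of 32 imprinted genes, of 55228 genes in the count table, was examined in HC11 cells and in lines targeted at *Vangl2*. The members were chosen as a list of named genes from the classical imprinted domains. No measured value was part of the rule, but earlier results of these data were known when the list was made. They are *H19*, 5 genes of the *Kcnq1* domain (*Kcnq1ot1*, *Phlda2*, *Ascl2*, *Slc22a18* and *Osbpl5*), 3 of the *Peg3* domain (*Peg3*, *Usp29* and *Zim1*), 6 of the *Snrpn*-*Ube3a* domain (*Snrpn*, *Ndn*, *Magel2*, *Mkrn3*, *Peg12* and *Ube3a*), 5 of the *Dlk1*-*Meg3* domain (*Dlk1*, *Rtl1*, *Meg3*, *Rian* and *Mirg*), 3 of the *Peg10*-*Sgce* domain (*Peg10*, *Sgce* and *Asb4*), 2 of the *Gnas* domain (*Gnas* and *Nespas*), and *Mest*, *Nnat*, *Plagl1*, *Grb10*, *Zrsr1*, *Airn* and *Impact*. All 32 had a row in the table, 31 under their own name and *Nespas* under a RefSeq synonym, and 15 of the 32 lie on chromosome 7.

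Imprinted genes are expressed mainly from the allele inherited from 1 parent. The parental mark is DNA methylation placed in the egg or the sperm at an imprinting control region and copied at each cell division. In several domains a long noncoding RNA made from the unmethylated control region silences neighbouring genes on the same chromosome. *Kcnq1ot1* does this on the paternal chromosome for *Phlda2*, *Slc22a18*, *Osbpl5* and *Ascl2*, and *Airn* does it for *Igf2r*. Many imprinted genes control growth of the embryo and the placenta, and many are shut down after birth.

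HC11 is a mammary epithelial cell line from the gland of a BALB/C mouse. The data are polyA RNA-seq of 9 cultures grown in normal medium with insulin and EGF and harvested as undifferentiated cells, 3 of the parental line (*WT*) and 3 of each *Vangl2* line (*KD1* and *KD2*, which the labels call knockouts). *KD1* and *KD2* were made with CRISPR/Cas9, separate guides and a repair template carrying stop codons, and each grew out as a clone of a parental population that is itself mixed, so a difference between a *KD* line and *WT* cannot be told apart from a difference between clones. The mouse strain is inbred and reads are counted per gene, so no value says which parental allele was read. No source says that the cultures of a line were grown apart, and p-values then measure only the spread between these cultures. Loss of RNA per cell and loss of cells that express a gene cannot be told apart in these bulk samples.

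Depth ran from 20030410 to 25505223 counts in *WT*, from 25514438 to 27896032 in *KD1* and from 19231428 to 28360592 in *KD2*. Counts of *Vangl2* itself were 66, 99 and 86 for *WT*, 75, 48 and 69 for *KD1* and 90, 118 and 90 for *KD2*. Its RNA was lower in *KD1* by the edgeR test (log2 fold change -0.63, adjusted p = 0.00581) and was not called different in *KD2* (0.05, adjusted p = 0.81), and a count over the whole gene does not read the inserted stop codons. At the protein level, the paper's immunoblots found little or no VANGL2 left in *KD1* and a strong reduction in *KD2*. *WT* replicate 1 and *KD2* replicate 3 stood apart from the other cultures of their lines, with chi-square values per degree of freedom of 10.6 to 13.2 and 18.6 to 24.1, against 1.39 to 3.40 for the other pairs within a line. All 8 mammary epithelial markers were above 3 counts in at least 1 culture, with summed CPM (counts scaled to library size) of 4877 to 5458 in *WT*, 5534 to 5674 in *KD1* and 2940 to 3642 in *KD2*. *Krt5* and *Krt14* made up most of these sums, at 2115 and 1525 CPM in *WT* and 1087 and 818 in *KD2*. In *KD2*, *Krt8* rose by edgeR's adjusted p (log2 fold change 0.76) and 5 of the 8 fell, where 34.0% and 33.3% of all genes did. *Krt18* and *Krt7* did not pass that test there. The 10 fibroblast and mesenchyme markers summed to 145 to 198 CPM in *WT*, 40.6 to 45.5 in *KD1* and 1109 to 1304 in *KD2*, where *Vim* made up most of the sum. By the adjusted p of edgeR, 1 of the 7 tested was higher and 5 lower in *KD1*, and 3 were higher and 3 lower in *KD2* (median log2 fold change -2.50 and -0.17). Among those 10, *Thy1* and *Lum* were at 3 counts or fewer in every culture, *Dcn* reached at most 6 counts, and *Col3a1* had 0, 1 and 0 counts in *KD1* against 59, 80 and 59 in *WT*. Of the 5 blood, 4 endothelial and 4 adipocyte markers 1 each was expressed enough to be tested, and their sums stayed under the 40.6 CPM of the lowest mesenchyme sum. These were *Cd68*, *Pecam1* and *Fabp4*, at 4.10, 2.16 and 0.18 CPM in *WT* and 7.55, 4.90 and 2.57 in *KD1*. All rose in *KD1* by edgeR's adjusted p (log2 fold change 0.89, 1.18 and 3.76). In *KD2*, *Pecam1* fell (-1.23), and *Cd68* and *Fabp4* were not called different. The part of other cells or cell states in the results below was not tested.

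RefSeq promoter sequences are shown for the members whose level separated the lines most among those with an entry, and *H19* had none. Of the 32 members, 26 had an entry in the RefSeq promoter table (GRCm38.p6). The 4 windows below run from 250 to 61 bases before the RefSeq start of *Plagl1*, *Slc22a18*, *Phlda2* and *Kcnq1ot1*, 190 bases each, 5′ to 3′ on the gene's own strand. CpG dinucleotides, the bases that imprinting methylates, are in capitals. *Slc22a18* and *Phlda2* are shown together because they are neighbours on chromosome 7.
Plagl1, chr10:13090582-13090771, plus strand: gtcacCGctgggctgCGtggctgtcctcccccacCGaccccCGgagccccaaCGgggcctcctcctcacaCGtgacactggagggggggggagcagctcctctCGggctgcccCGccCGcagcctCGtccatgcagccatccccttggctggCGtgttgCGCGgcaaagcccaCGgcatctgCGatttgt
Slc22a18, chr7:143473539-143473728, plus strand: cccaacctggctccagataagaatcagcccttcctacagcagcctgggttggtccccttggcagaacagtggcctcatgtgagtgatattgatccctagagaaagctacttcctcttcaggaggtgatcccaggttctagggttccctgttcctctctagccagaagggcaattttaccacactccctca
Phlda2, chr7:143502585-143502774, minus strand: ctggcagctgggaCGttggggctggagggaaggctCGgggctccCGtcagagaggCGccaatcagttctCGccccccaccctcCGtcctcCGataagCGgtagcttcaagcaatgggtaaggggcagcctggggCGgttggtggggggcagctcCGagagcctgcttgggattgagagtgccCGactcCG
Kcnq1ot1, chr7:143296608-143296797, minus strand: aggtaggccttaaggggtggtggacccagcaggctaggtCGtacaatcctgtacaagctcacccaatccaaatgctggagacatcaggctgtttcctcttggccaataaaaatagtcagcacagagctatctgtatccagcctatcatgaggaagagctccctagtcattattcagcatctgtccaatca

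The *Plagl1* window held 15 CpG and the *Phlda2* window 12, whereas that of *Slc22a18* held 0 and that of *Kcnq1ot1* 1. The median over all 32851 promoter windows was 4. TGCCGC, the core of the site that the imprint-protecting factor ZFP57 reads when it is methylated, was searched on both strands. It occurred 1 time in the *Plagl1* window and 0 times in the other 3 shown. By the same search, 6.28% of all windows held it, and 7.17% of all genes and 3 of the 26 members held it in at least 1 window. *Zfp57* itself had 0 counts in all 9 cultures. These are matches of letters only, and neither methylation nor factor binding was measured.

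Several member genes overlap annotated microRNA genes, *Mirg*, *Meg3* and *Rtl1* of the *Dlk1*-*Meg3* domain among them. Mature sequences are shown for *H19* and *Mest* only, with the seed (bases 2 to 8, which pair with targets) in capitals. *H19* contains miR-675 in its first exon and *Mest* contains miR-335 in an intron. The seeds differ.
mmu-miR-675-5p, chr7:142577112-142577133, minus strand: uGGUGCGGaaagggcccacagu
mmu-miR-335-5p, chr6:30741314-30741336, plus strand: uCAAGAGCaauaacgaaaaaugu

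The libraries were not made from small RNA. The rows for the microRNA genes shown held 0 counts (*Mir675*) and 1 count (*Mir335*) over all 9 cultures. Levels of microRNAs were therefore not measured.

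In HC11 cells only part of the imprinted list was read. Of the 32 members, 9 had no count in any culture, and a further 7 had counts but never more than 3, the floor used for what a library can show. In all, 16 of 32 members (50%) stayed at or under the floor, compared with 62.2% of all genes in the table and 33.8% of protein-coding genes. The silent members were whole domains in several cases. All 5 genes of the *Dlk1*-*Meg3* domain were at or under the floor, including *Dlk1*, a membrane protein that holds back adipocyte differentiation, *Rtl1*, a retrotransposon-derived gene of the placenta, and the noncoding RNAs *Meg3*, *Rian* and *Mirg*. All 3 genes of the *Peg3* domain were too: *Peg3*, a zinc finger protein, *Usp29*, a deubiquitinase gene, and *Zim1*, another zinc finger gene, reached at most 1 count.

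*Peg10*, a retrotransposon-derived placental gene, and *Sgce*, which encodes epsilon-sarcoglycan and shares its promoter region with *Peg10*, had 0 counts in every culture. In the *Snrpn*-*Ube3a* domain, *Ndn* and *Magel2*, related MAGE family genes, had 0 counts and *Peg12* had 1 count in 1 *WT* culture. *Grb10*, an adaptor that dampens insulin receptor signalling, reached at most 1 count in *KD1* and in *KD2*. *Ascl2*, a transcription factor of the placenta, also reached at most 1 count in every line. *Nespas*, the antisense RNA of the *Gnas* domain, had 0 counts. These 16 members were grouped by staying at or under the floor in all 9 cultures, both *KD* lines included. That none came above it in a *KD* line follows from the grouping and is no result. *Asb4*, at or under the floor in *WT* and above it in *KD1*, is left out by that rule and is given below.

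**Figure D1:**
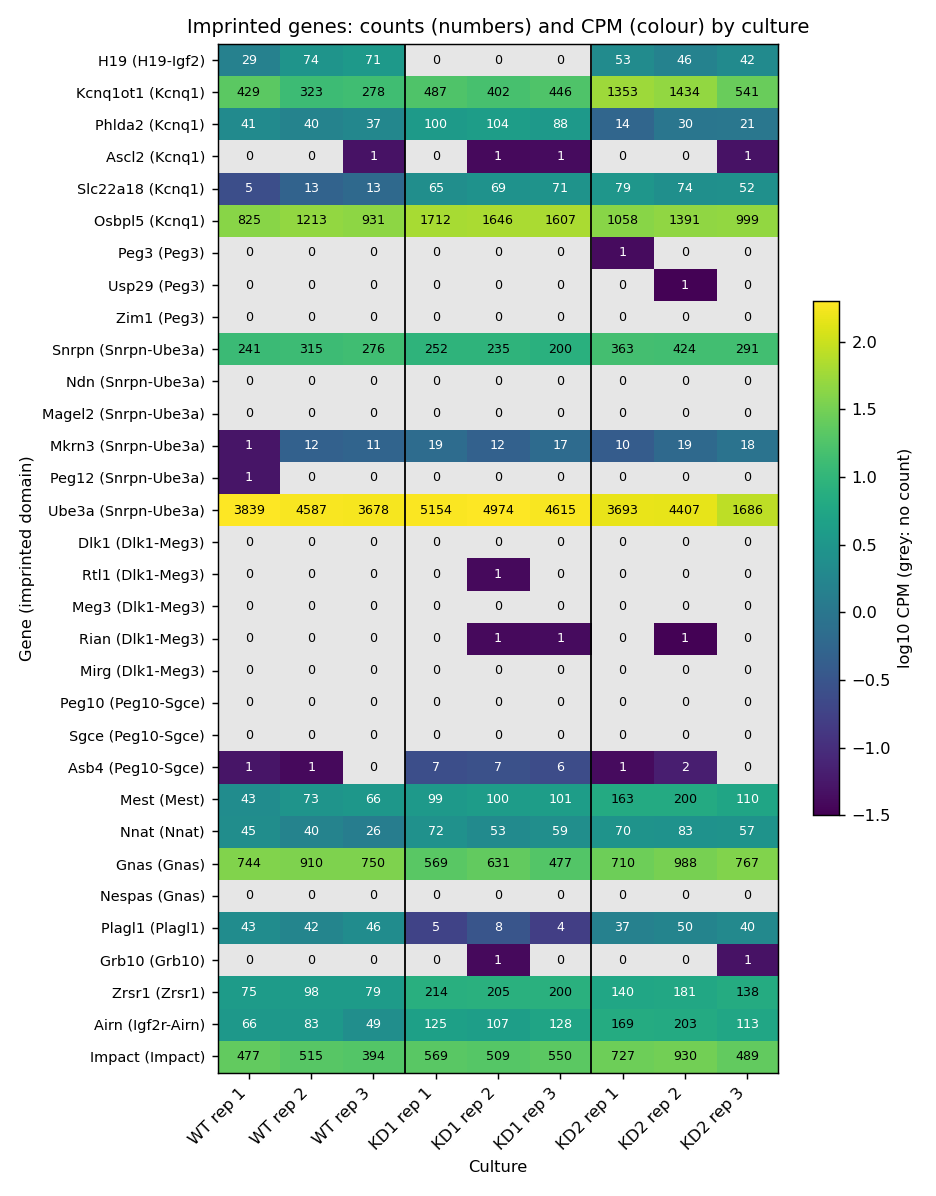
Read counts (numbers in the cells) and log10 CPM (colour, grey for no count) of the 32 imprinted genes in the 9 cultures, rows grouped by imprinted domain and columns by line. The rows of the *Dlk1*-*Meg3* and *Peg3* domains are at 0 or 1 count throughout, and *H19* is at 0 in the 3 *KD1* cultures only.

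The other 16 members were above the floor in at least 1 culture, and 15 of them passed the expression filter of edgeR. The exception was *Asb4*, a substrate adaptor of a ubiquitin ligase expressed from the maternal allele, with 1, 1 and 0 counts in *WT*, 7, 7 and 6 in *KD1* and 1, 2 and 0 in *KD2*. Its *KD1* cultures lay above all others, at least 1.85-fold higher than *WT* when *WT* is set to the floor. It entered the test only when every gene with at least 1 count was kept, and was then called higher in *KD1* than in *WT* and lower in *KD2* than in *KD1*. Levels per exon length in *WT* were highest for *Osbpl5* (9.23 ± 0.64 RPKM, SD, n = 3) and *Ube3a* (9.04 ± 0.43), which did not differ beyond their spread. *Snrpn* (5.93 ± 0.27), *Impact* (4.17 ± 0.52) and *Gnas* (3.31 ± 0.08) followed in that order. The remaining 10 were at or under 1.64 RPKM, the level of *Phlda2*, and *Kcnq1ot1* stood at 0.17 ± 0.05 over an exon length of 93092 bases.

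With called meaning an adjusted p under 0.05 by edgeR's quasi-likelihood test and a change of more than 2-fold, 5 of the 15 tested members were called in *KD1* against *WT*. Over all 15253 genes tested, 16.8% were called in that comparison. In *KD2* against *WT* it was again 5 of 15, against 21.2% of all genes. Between the lines, in *KD2* against *KD1*, it was 4 of 15, against 23.3% of all genes. The members that passed the filter had to be expressed in some line, so these counts describe them and are not set against chance.

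Direction and members differed. In *KD1*, *Slc22a18*, *Phlda2* and *Zrsr1* were called higher and *H19* and *Plagl1* lower, where 9.34% of all genes were called higher and 7.49% lower. In *KD2*, *Slc22a18*, *Kcnq1ot1*, *Mest* and *Airn* were called higher and *Phlda2* lower, where 14.5% and 6.71% of all genes were. The comparisons share the *WT* cultures. Without *WT* replicate 1 and *KD2* replicate 3 the same members were called in each of the 3 comparisons. The median log2 fold change of the tested members was 0.47 in *KD1* and 0.40 in *KD2*, against -0.03 and 0.01 over all genes tested.

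**Figure D2:**
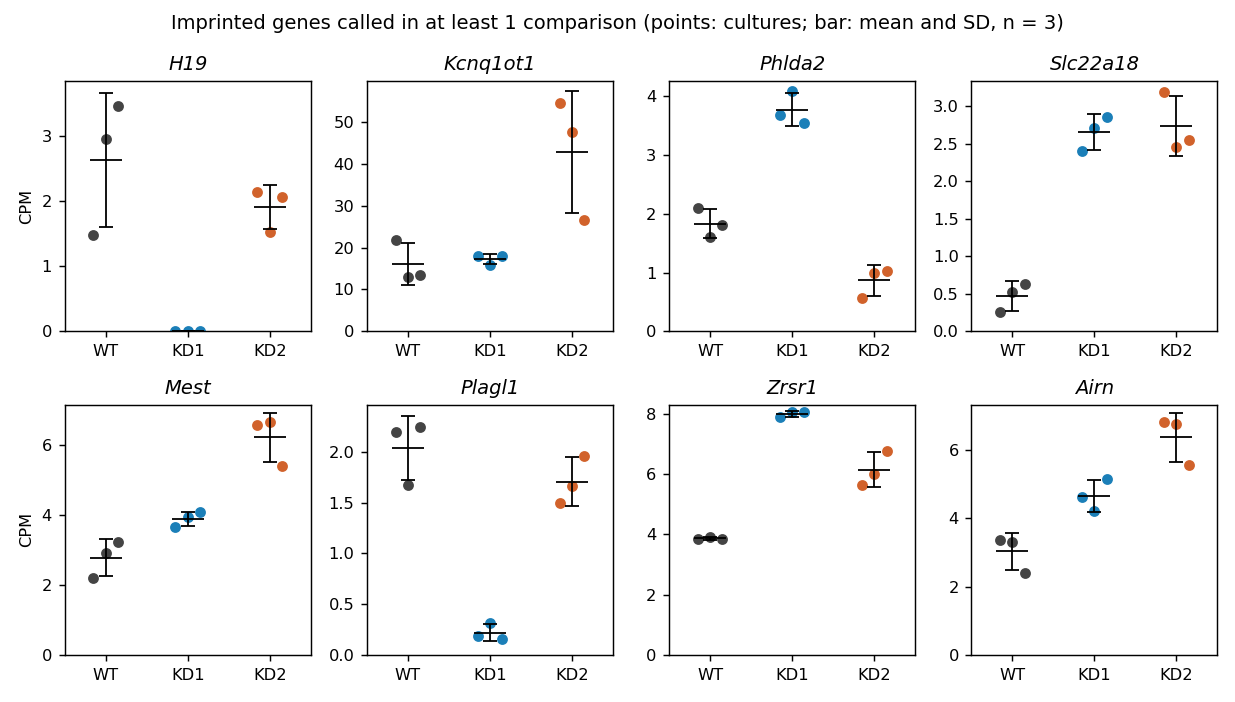
CPM of the 8 imprinted genes called in at least 1 comparison, with 1 point per culture and the mean and SD of 3 cultures per line, each panel on its own linear axis from 0. *H19* and *Plagl1* are lowest in *KD1*, *Slc22a18* is raised in both *KD* lines, and *Phlda2* is raised in *KD1* and lowered in *KD2*.

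*H19* is a noncoding RNA expressed from the maternal allele, paired with the growth factor gene *Igf2* and known for high expression in the embryo. It lies at chr7:142575529-142578143 (GRCm38, minus strand), and small annotated RNAs, *Mir675* among them, overlap 9.15% of its exons. *WT* cultures gave 29, 74 and 71 counts of it, *KD1* cultures 0, 0 and 0, and *KD2* cultures 53, 46 and 42. Every *KD1* culture was at zero while *WT* and *KD2* overlapped. Set to the floor, *KD1* was at least 22.6-fold lower than *WT* (adjusted p = 1.13e-06, edgeR) and *KD2* was at least 16.4-fold higher than *KD1* (adjusted p = 2.26e-06). *KD2* against *WT* missed the threshold (log2 fold change -0.49 ± 0.28, SE, adjusted p = 0.138). *WT* replicate 1 had the fewest *H19* counts of its line, and without it *KD2* was lower than *WT* by that test (-0.76, adjusted p = 0.00725). The 65 tested genes within 2 Mb of *H19* had a median log2 fold change of 0.04 in *KD1* and 13 of them were called.

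*Plagl1* encodes a zinc finger transcription factor that restrains proliferation and regulates other imprinted genes, and it is expressed from the paternal allele. It lies at chr10:13060504-13131694 (plus strand), and its window above is rich in CpG. Counts were 43, 42 and 46 in *WT*, 5, 8 and 4 in *KD1*, and 37, 50 and 40 in *KD2*. The 3 *KD1* cultures lay below all others. *Plagl1* fell in *KD1* to 0.22 ± 0.08 CPM from 2.04 ± 0.31 (SD, n = 3 each; log2 fold change -3.17 ± 0.29, SE, adjusted p = 4.24e-07, edgeR), which is 9.03-fold. *KD2*, at 1.71 ± 0.24 CPM, was not called different from *WT* (-0.26 ± 0.20, adjusted p = 0.276). The 19 tested genes within 2 Mb had a median of -0.05 in *KD1*, and 1 of them was called.

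*H19* and *Plagl1* therefore had the same order of levels, *KD1* below both *WT* and *KD2*, on different chromosomes and from opposite parental alleles. They were not alone among the members. *Gnas* had that order too, at 37.0 CPM in *WT*, 21.7 in *KD1* and 33.1 in *KD2*. *Snrpn* was also lowest in *KD1*, at 12.8, 8.86 and 14.4 CPM, both by less than 2-fold. The share of all genes with *KD1* lowest was not computed. Among the mesenchyme markers, the collagen gene *Col3a1* had the same order of levels, at 3.03 CPM in *WT*, 0.013 in *KD1* and 2.72 in *KD2*, and so did *Col1a1*, at 7.03, 0.57 and 4.37 CPM. *Vim* was also lowest in *KD1*, at 18.3 CPM, but stood at 145 in *WT* and 1091 in *KD2*. Other markers of that list had other orders, such as *Prrx1*, at 6.82 CPM in *WT*, 11.5 in *KD1* and 0.46 in *KD2*, *Twist1*, at 7.18, 4.76 and 3.08, and *Pdgfra*, at 7.95, 8.39 and 16.4. These 6 markers were picked after their values were seen. The part of such cells or cell states in the levels of *H19* and *Plagl1* was not tested.

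In the *Kcnq1* domain 4 of the 5 members were tested. In each of the 3 comparisons 3 of these 4 changed, where 56.9% to 67.8% of all genes tested did. *Slc22a18*, a transporter of the solute carrier family expressed from the maternal allele, rose in both *KD* lines. It lies at chr7:143473736-143499334 (plus strand). It had 5, 13 and 13 counts in *WT*, 65, 69 and 71 in *KD1* and 79, 74 and 52 in *KD2*. The 6 *KD* cultures were all above the 3 *WT* cultures. The log2 fold change was 2.47 ± 0.25 (SE) in *KD1* (adjusted p = 1.54e-06) and 2.51 ± 0.25 in *KD2* (adjusted p = 9.96e-07), or 5.53-fold and 5.69-fold by edgeR. The lines did not differ from each other by the same test (0.04 ± 0.18, adjusted p = 0.848). No other tested member was called in the same direction in both *KD* lines. The share of all genes called alike in both lines was not computed, so this count is a description only.

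*Phlda2*, a small pleckstrin homology protein that restrains placental growth, is the next gene along, at chr7:143501545-143503150 on the minus strand, and is also expressed from the maternal allele. Its counts were 41, 40 and 37 in *WT*, 100, 104 and 88 in *KD1* and 14, 30 and 21 in *KD2*. The lines did not overlap, with *KD1* highest and *KD2* lowest in CPM. *Phlda2* rose in *KD1* (log2 fold change 1.05 ± 0.19, SE, adjusted p = 2.53e-04, edgeR) and fell in *KD2* (-1.07 ± 0.23, adjusted p = 9.78e-04). The difference between the lines was 4.35-fold (-2.12 ± 0.20, adjusted p = 5.27e-07). Both calls against *WT* stood close to the 2-fold limit. The *KD2* call ended without *WT* replicate 1 (-0.97) or *KD2* replicate 1 (-0.84), and the *KD1* call without *WT* replicate 2 (0.97) or *KD1* replicate 2 (0.99), while each stayed past the adjusted p.

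*Kcnq1ot1*, the paternal noncoding RNA that silences this domain in cis, occupies chr7:143203458-143296549 on the minus strand. Counts were 429, 323 and 278 in *WT*, 487, 402 and 446 in *KD1* and 1353, 1434 and 541 in *KD2*. Scaled to depth, that is 16.1 ± 5.0 CPM, 17.2 ± 1.3 and 43.0 ± 14.6 (SD, n = 3 each). In CPM every *KD2* culture lay above every other culture, with *KD2* replicate 3 nearest to them. *Kcnq1ot1* rose in *KD2* by 2.70-fold (log2 fold change 1.43 ± 0.23, SE, adjusted p = 8.15e-05, edgeR), and by 1.94 on the log2 scale without *WT* replicate 1 and *KD2* replicate 3. It was not called different in *KD1* (0.11 ± 0.24, adjusted p = 0.731), and without those cultures the value there was 0.38 (adjusted p = 5.72e-05). In *KD2*, then, the RNA rose while *Slc22a18* rose and *Phlda2* fell, and in *KD1* *Slc22a18* and *Phlda2* rose with *Kcnq1ot1* not called different. Exons of *Kcnq1* on the other strand and small annotated RNAs cover 1.20% of its length, and the sources used here do not state how reads there were assigned.

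*Osbpl5*, an oxysterol-binding protein that moves lipids between membranes, lies further along at chr7:143688762-143756985 on the minus strand. It rose in *KD1* from 45.4 ± 3.1 to 64.2 ± 0.9 CPM (SD, n = 3 each; log2 fold change 0.50 ± 0.07, SE, adjusted p = 2.67e-05, edgeR). In *KD2*, at 46.0 ± 3.2 CPM, it was not called different (0.02 ± 0.07, adjusted p = 0.831). The fifth gene of the domain, *Ascl2*, stayed at the floor. The 28 to 51 tested genes within 2 Mb of each of the 4 had medians from -0.01 to 0.09 in *KD1* and from -0.04 to 0.17 in *KD2*.

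**Figure D3:**
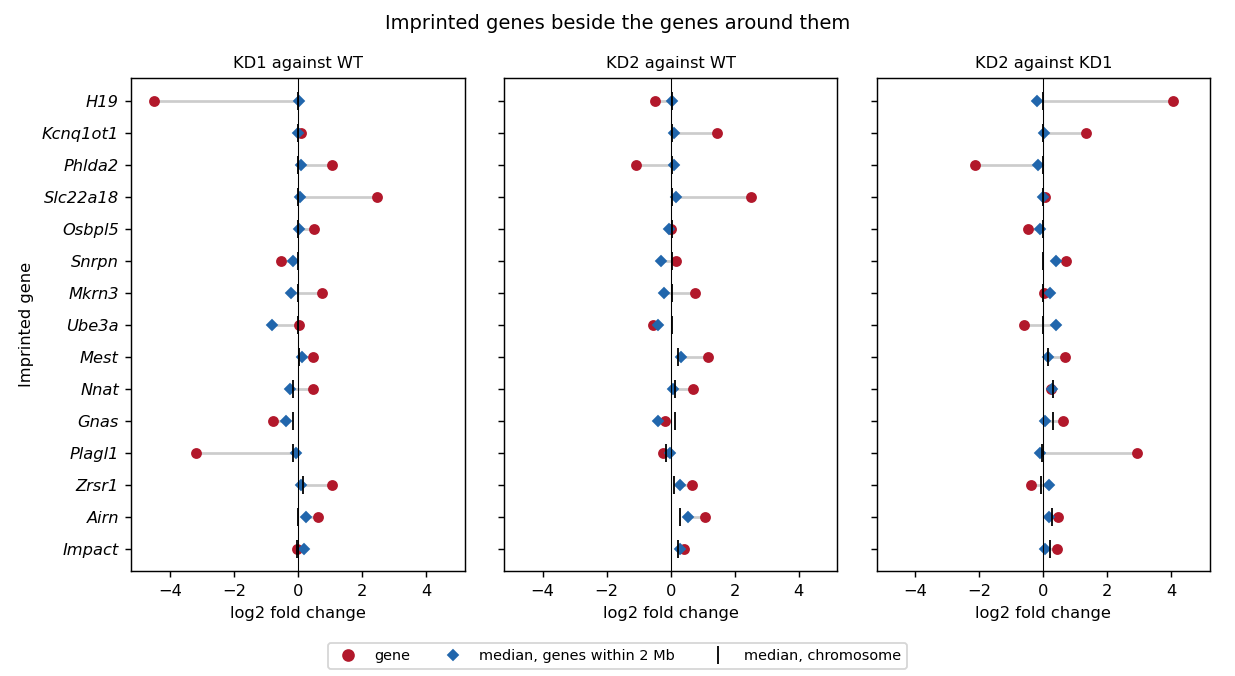
Log2 fold change of each tested imprinted gene (circle), the median of the tested genes within 2 Mb of it (diamond) and the median of its chromosome (tick), in the 3 comparisons. *H19* is drawn at its lower bound where *KD1* had no count. In *KD1*, *H19*, *Plagl1*, *Slc22a18*, *Phlda2* and *Zrsr1* lie far from the median of the genes around them, while those medians stay near 0 for them.

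Among paternally expressed members outside that domain, several stood higher in *KD2*. The summed mesenchyme markers were also highest there, a sum carried by *Vim* and *Pdgfrb*, while *Prrx1* (log2 fold change -3.78), *Twist1* (-1.23) and *Col1a1* (-0.71) of the same list fell in *KD2*. The part of that difference was not tested. *Mest*, a hydrolase-like gene of mesoderm, had 2.20, 2.92 and 3.22 CPM in *WT*, 3.65, 3.93 and 4.07 in *KD1* and 6.58, 6.65 and 5.41 in *KD2*. The lines did not overlap and *KD2* was highest. *Mest* rose in *KD2* (log2 fold change 1.16 ± 0.15, SE, adjusted p = 1.18e-05, edgeR) and rose less in *KD1* (0.47 ± 0.16, adjusted p = 0.0196). The difference between the lines passed the test too (0.69 ± 0.14, adjusted p = 6.36e-04). The *KD1* result ended without *WT* replicate 1 (0.34, adjusted p = 0.0733) or *KD1* replicate 3 (0.45, adjusted p = 0.0601). *Copg2* on the other strand overlaps 23.1% of the *Mest* exons, and the sources used here do not state whether strand was used in counting.

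*Airn*, the noncoding RNA that silences *Igf2r* on the paternal chromosome, lies at chr17:12741311-12860136 on the plus strand. It stood at 3.38, 3.32 and 2.39 CPM in *WT*, 4.61, 4.20 and 5.16 in *KD1* and 6.82, 6.75 and 5.55 in *KD2*. The lines did not overlap. *Airn* rose in *KD2* (log2 fold change 1.08 ± 0.15, SE, adjusted p = 2.97e-05, edgeR) and in *KD1* (0.62 ± 0.16, adjusted p = 0.00439). Without *WT* replicate 3 the *KD2* value was 0.96, under the 2-fold limit. Its target *Igf2r*, the maternally expressed receptor that clears IGF2 and no member of the list, stood at 342 CPM in *WT*, 435 in *KD1* and 203 in *KD2*. *Igf2r* rose in *KD1* (0.35 ± 0.06, adjusted p = 1.67e-04) and fell in *KD2* (-0.75 ± 0.06, adjusted p = 8.34e-08).

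*Zrsr1*, a retrogene for a splicing factor subunit that sits in an intron of *Commd1*, had closely matched replicates in *WT* and *KD1*. It stood at 3.84, 3.92 and 3.85 CPM in *WT*, 7.89, 8.05 and 8.06 in *KD1* and 5.65, 6.02 and 6.78 in *KD2*. It rose in *KD1* by 2.07-fold (log2 fold change 1.05 ± 0.11, SE, adjusted p = 1.91e-06, edgeR) and in *KD2* by 1.58-fold (0.66 ± 0.11, adjusted p = 1.41e-04). Unlike *Mest* and *Airn*, *Zrsr1* was higher in *KD1* than in *KD2* (-0.38 for *KD2* against *KD1*, adjusted p = 0.0042, edgeR). *Commd1* exons cover 9.17% of it.

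*Nnat*, a small membrane proteolipid of the developing brain, rose in *KD2* from 1.72 ± 0.53 to 2.80 ± 0.03 CPM (log2 fold change 0.71 ± 0.20, SE, adjusted p = 0.00645, edgeR). In *KD1* it stood at 2.37 ± 0.29 CPM (0.47 ± 0.20, adjusted p = 0.0621), and passed the test without *WT* replicate 1 (0.71, adjusted p = 0.00721). *Impact*, an inhibitor of the GCN2 stress kinase, rose in *KD2* (0.40 ± 0.10, adjusted p = 0.00378) from 21.4 ± 2.7 to 28.1 ± 3.6 CPM, with cultures that overlapped. It was not called different in *KD1* (-0.02 ± 0.11, adjusted p = 0.877).

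The *Snrpn*-*Ube3a* domain held the member with the most reads, *Ube3a*. *Snrpn*, paternally expressed and encoding the spliceosomal protein SmN, stood at 12.8 ± 0.6 CPM in *WT*, 8.86 ± 0.70 in *KD1* and 14.4 ± 0.3 in *KD2* (SD, n = 3 each). It fell in *KD1* (log2 fold change -0.53 ± 0.09, SE, adjusted p = 1.49e-04, edgeR) and was not called different in *KD2* (0.17 ± 0.08, adjusted p = 0.0979). Reads of *Snurf*, which is part of the same transcript, overlap 34.1% of its exons together with other models, and cannot be assigned with certainty. *Ube3a*, a ubiquitin ligase expressed from the maternal allele in neurons and from both alleles in most other cells, stood at 196, 183 and 179 CPM in *WT*, 190, 195 and 186 in *KD1* and 149, 147 and 82.9 in *KD2*.

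*KD2* replicate 3 was far below the other *KD2* cultures in *Ube3a*, and all 3 lay below *WT*. *Ube3a* fell in *KD2* (-0.56 ± 0.15, adjusted p = 0.00564), and without that culture the fall was smaller but still past the test (-0.31, adjusted p = 8.54e-06). In *KD1* it was not called different (0.03 ± 0.15, adjusted p = 0.879). Antisense transcripts including *Snhg14* overlap 27.3% of the *Ube3a* exons. *Mkrn3*, a makorin gene with a part in the timing of puberty, had 1, 12 and 11 counts in *WT*, 19, 12 and 17 in *KD1* and 10, 19 and 18 in *KD2*. Its lines overlapped and no comparison passed the test (adjusted p = 0.197 in *KD1* and 0.17 in *KD2*).

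*Gnas*, which encodes the stimulatory G protein alpha subunit and several other products of both maternal and paternal origin, fell in *KD1* from 37.0 ± 0.9 to 21.7 ± 2.8 CPM (log2 fold change -0.77 ± 0.10, SE, adjusted p = 2.22e-05, edgeR). All *KD1* cultures lay below all others. *KD2*, at 33.1 ± 4.5 CPM, was not called different from *WT* (-0.16 ± 0.10, adjusted p = 0.167), and fell by the test without *KD2* replicate 3 (-0.23, adjusted p = 0.0147). Exons of antisense transcripts, *Nespas* among them, overlap 22.0% of the *Gnas* exons.

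**Figure D4:**
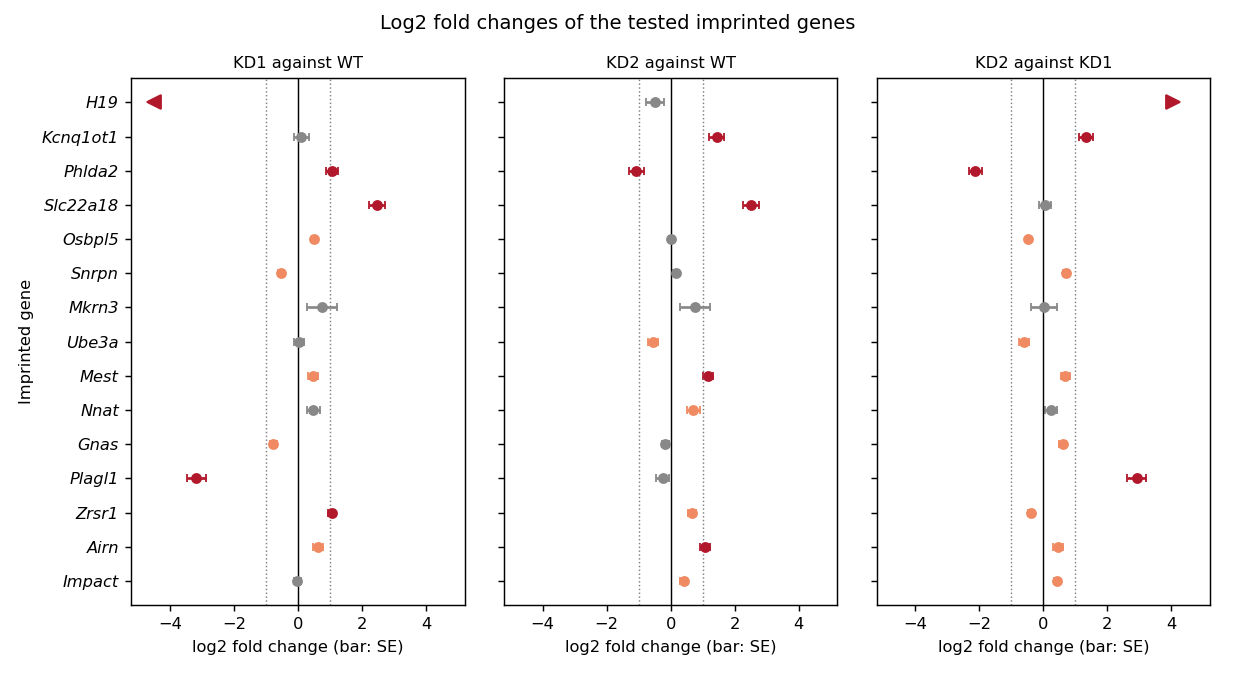
Log2 fold changes of the 15 tested imprinted genes with SE bars, for *KD1* against *WT*, *KD2* against *WT* and *KD2* against *KD1*. Red marks genes called (adjusted p under 0.05 and over 2-fold, dotted lines), orange those past the adjusted p alone, grey the rest, and triangles the lower bounds of *H19*. *Phlda2* crosses from the right of 0 in *KD1* to the left in *KD2*.

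By the adjusted p alone, 10 of 15 members changed in *KD1*, beside 56.9% of all genes tested. Of these 6 were higher and 4 lower, where 26.9% of all genes were higher and 30.0% lower. In *KD2* 9 changed, beside 67.2% of all genes, with 7 higher and 2 lower, where 34.0% and 33.3% of all genes were. Grouped by the allele known to be expressed, 6 of the 9 tested paternally expressed members rose in *KD2* and 0 fell, with a median log2 fold change of 0.71. Of the 5 listed as maternally expressed 1 rose and 2 fell, with a median of -0.49, and 1 of those that fell was *Ube3a*, whose maternal expression is known from neurons. In *KD1* the paternal group had 3 higher and 2 lower and the maternal group 3 higher and 1 lower, with medians of 0.47 and 0.50. The difference between the allele groups was not tested.

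The lines were also set against each other, since each comparison with *WT* holds the same controls. In *KD2* against *KD1*, 12 of 15 members changed by the adjusted p, beside 67.8% of all genes tested, with 8 higher and 4 lower, where 34.8% and 33.0% of all genes were. With the 2-fold limit, *H19*, *Plagl1* and *Kcnq1ot1* were called higher in *KD2* and *Phlda2* lower, where 14.7% of all genes were called higher and 8.58% lower. The values were 2.92 ± 0.29 on the log2 scale for *Plagl1* (adjusted p = 7.42e-07) and 1.33 ± 0.22 for *Kcnq1ot1* (adjusted p = 1.20e-04, edgeR). *Gnas*, *Snrpn*, *Mest*, *Airn* and *Impact* were higher in *KD2* by less than 2-fold, and *Ube3a*, *Osbpl5* and *Zrsr1* lower. *Airn* was no longer past the test without *KD1* replicate 2 (0.38, adjusted p = 0.0571, edgeR). *Slc22a18*, *Nnat* and *Mkrn3* did not pass the test. The median absolute log2 fold change between the lines was 0.59 for the members and 0.46 over all genes tested.

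Other imprinted genes and the genes that keep imprints were read from separate lists. Of 45 further imprinted genes 24 were tested. In *KD1* 1 of the 24 was called higher and 0 lower, where 9.34% and 7.49% of all genes were. In *KD2* 4 were called higher and 2 lower, where 14.5% and 6.71% of all genes were. *Ampd3*, an AMP deaminase, rose from 0.62 CPM in *WT* to 17.7 in *KD1* (log2 fold change 4.84 ± 0.14, SE, adjusted p = 2.53e-12, edgeR) and 3.43 in *KD2* (2.47 ± 0.17, adjusted p = 2.66e-08). *Ppp1r9a*, a neurabin gene of the *Peg10*-*Sgce* domain, had 0, 1 and 2 counts in *WT* and 12, 18 and 15 in *KD2*, where it was at least 4.34-fold higher (adjusted p = 3.34e-04). *Sfmbt2*, a Polycomb-related gene, had 66, 74 and 70 counts in *WT* and 3, 5 and 0 in *KD2*, where it fell (-4.87 ± 0.33, adjusted p = 2.15e-08). In *KD2* against *KD1* 1 of the 24 was called higher and 5 lower, where 14.7% and 8.58% of all genes were.

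Of 19 genes that maintain or reset imprints 16 were tested. In *KD1* 3 were higher and 7 lower by the adjusted p, beside 26.9% and 30.0% of all genes, and in *KD2* 4 were higher and 8 lower, beside 34.0% and 33.3%. *Tet1*, a dioxygenase that removes DNA methylation, fell from 9.53 CPM in *WT* to 0.91 in *KD1* (log2 fold change -3.39 ± 0.20, SE, adjusted p = 3.47e-09, edgeR) and 4.22 in *KD2* (-1.16 ± 0.16, adjusted p = 1.64e-05). *Dnmt3b*, a methyltransferase that sets new methylation, fell in *KD1* (-1.12 ± 0.14, adjusted p = 9.11e-06). It also fell in *KD2*, by less than 2-fold (-0.71 ± 0.13, adjusted p = 3.26e-04, edgeR). *Dnmt1* and *Ctcf* are named for their roles, and *Uhrf1* and *Setdb1* as genes that rose, all after their values were seen. The maintenance methyltransferase *Dnmt1* fell by less than 2-fold in both lines (-0.41 in *KD1* and -0.35 in *KD2*), as did *Ctcf*, the insulator protein that binds the *H19* control region (-0.63 and -0.78). *Uhrf1* (0.29 in *KD1* and 0.20 in *KD2*) and *Setdb1* (0.24 and 0.31) rose by the adjusted p in both lines, also by less than 2-fold. The part of these genes in the levels of the members was not tested.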

How the data were processed

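PolyA RNA was sequenced from 3 *WT*, 3 *KD1* and 3 *KD2* cultures of HC11 cells. The authors deposited unnormalized read counts per gene. Per the submitters' processing notes and the methods, reads were trimmed with fastp, aligned to GRCm38 with HISAT2 and counted with featureCounts (Subread), and the authors tested them with DESeq2. Versions of those tools, and whether strand was used, are not given in the sources used here. Lines and replicate numbers come from the labels, and 0 columns were left without a culture.

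Counts were tested here with the quasi-likelihood test of edgeR 4.0.16 (R 4.3.3), with TMM scaling, its expression filter, 1 fit of all 9 cultures and Benjamini-Hochberg adjustment over 15253 genes. A gene changed at an adjusted p under 0.05 and was called with an absolute log2 fold change above 1 in addition. CPM are counts over the TMM-scaled library size, and RPKM divides by the exon length. Folds against a group with no culture over 3 counts were computed against that floor, set in every culture of the group, and are lower bounds that cover counting error only. SEs follow from each fold change and its F statistic. Positions and exon overlaps came from GENCODE M21 (GRCm38), sequences from RefSeq. All tests were checked on simulated counts.

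The members and gene lists were chosen with earlier results of these data known. All 32 members are named. Of the other lists (further imprinted genes, genes that keep imprints, markers of mammary epithelium, mesenchyme, blood, endothelium and adipocytes) up to 3 called genes per comparison with the largest changes may be named. Same-numbered cultures did not deviate together (correlations -0.07 to 0.11), so no block was used. Alternatives were DESeq2 1.42.0, other size factors, other count filters, only the 6 cultures compared, a replicate block, the adjusted p alone and leaving out each culture. Leaving out both cultures that stood apart was added after seeing the data. No step separates parental alleles.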

Additional observations from a re-analysis of the deposited data

Results flagged for a closer look

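The effects of the 2 *KD* lines on a gene share the *WT* cultures, so the test of *KD2* against *KD1* is the test of whether the effects differ. By that test (edgeR, adjusted p under 0.05) and a difference of more than 2-fold, 4 of the 15 tested imprinted genes differed between the lines, beside 23.3% of all genes tested.

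*H19* had no count in *KD1* and 42 to 53 counts in *KD2*. Its fitted log2 difference of 8.52 rests on zeros and is no measure of size, and the bound is at least 16.4-fold. *Plagl1* was higher in *KD2* than in *KD1* by 2.92 on the log2 scale, with 37 to 50 counts against 4 to 8. *Kcnq1ot1* was higher in *KD2* by 1.33, and by 1.57 without *KD2* replicate 3. *Phlda2* was lower in *KD2* (-2.12), where the lines lay on opposite sides of *WT*. Each of the 4 kept its call with *WT* replicate 1 and *KD2* replicate 3 left out.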

How the results depend on the processing

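Of 753 values of single members under 17 alternatives, 723 kept their direction and side of the adjusted p, 11 passed it newly, 3 lost it and 16 changed sign. By the adjusted p alone the called members became 6 higher and 4 lower in *KD1*, 7 and 2 in *KD2*, and 8 and 4 in *KD2* against *KD1*. Requiring 10 counts in every culture removed *H19* and *Plagl1*, whose *KD1* counts were lower than that, and *Slc22a18*, with 5 counts in *WT* replicate 1. It left 2 called higher and 0 lower in *KD1*, 3 higher in *KD2*, and 1 (*Kcnq1ot1*) higher in *KD2* than in *KD1*. Testing every gene with at least 1 count added *Asb4*, giving 4 called higher in *KD1* than in *WT* and 2 lower in *KD2* than in *KD1*. Library size alone, which moved the median of all genes by 0.11 in *KD2* against *WT* and by 0.13 in *KD2* against *KD1*, left 0 called lower in *KD2* (*Phlda2* at -0.96). Leaving out 1 culture gave 2 to 3 called higher and 2 to 2 lower in *KD1*, 3 to 4 higher and 0 to 1 lower in *KD2*, and 3 to 3 higher and 1 to 1 lower in *KD2* against *KD1*. Under a replicate block the counts of called members were 3 and 2 in *KD1*, 4 and 1 in *KD2* and 3 and 1 in *KD2* against *KD1*, and no call changed, but the numbers were not found to pair the cultures.

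No value that changed sign passed the test. *Impact* in *KD1* was 0.00065 with median-of-ratios size factors, 0.0194 with only the 6 cultures compared and 0.0712 without both cultures that stood apart, and ranged from -0.0683 to 0.0796 over the fits that leave out 1 culture. *Kcnq1ot1* in *KD1* ranged over those fits from -0.0169, without *WT* replicate 2, to 0.384. *Osbpl5* in *KD2* was -0.0128 with at least 1 count and -0.0809 without both cultures that stood apart, and ranged from -0.0348 to 0.0915. For *KD2* against *KD1*, *Slc22a18* ranged from -0.0854 to 0.122. There *Mkrn3* was -0.0188 with at least 1 count and -0.228 without both cultures that stood apart, and ranged from -0.226 to 0.252. *H19* in *KD2* passed the adjusted p with at least 1 count tested (-0.52, adjusted p = 0.0426, edgeR), without *WT* replicate 1 and without both cultures that stood apart (-0.82, adjusted p = 0.00048). The cause of these moves was not tested. Depth limits the 16 members at or under the floor, for which a change could not be read.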
